A study of Mus musculus with 60 samples.

Results

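The colon of mice with collagen-induced arthritis (CIA) was compared with that of naïve mice at a single time of day, ZT12, the moment at which the lights went off. ZT counts the hours after lights on in a 12 h light and 12 h dark cycle. The comparison held 10 of the 60 RNA-Seq libraries of the series, 5 labelled CIA and 5 labelled naïve at that time, chosen by the treatment and time given in the sample labels. It was made over all 16798 genes that passed a filter on low counts, out of 27179 genes in the count table. Every animal was a male DBA/1 mouse. CIA mice, aged 9 to 10 weeks, had been injected with bovine type II collagen in Complete Freund's adjuvant on day 0 and boosted with the collagen on day 21, both at ZT6, and were killed 7 days after their symptoms began. Naïve mice were housed together with them, were killed at the same ZT and had not been immunised, so the arthritis and the adjuvant cannot be told apart. RNA came from a whole 5 mm piece of mid-colon. Each library therefore mixed epithelium, lamina propria, muscle, nerve and the outer surface, and fewer cells of a type and less RNA per cell cannot be told apart in such bulk samples.

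The colon wall is built in layers. An epithelium of crypts, with dividing cells at the base and absorptive, mucus-secreting goblet and hormone-secreting cells above them, lies on a lamina propria that holds fibroblasts, macrophages, lymphocytes and antibody-secreting plasma cells. Outside it lie smooth muscle with the enteric nerve plexuses, and then the mesothelium that faces the abdominal cavity. Goblet cells and plasma cells fold large amounts of protein in the endoplasmic reticulum, a compartment whose chaperones are induced together when unfolded protein builds up. Mice feed mainly in the dark, so that ZT12 falls at the turn from rest to feeding, and the molecular clock of the colon, a loop of transcription activators and their own repressors, runs in the same daily cycle.

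Total counts were 40902730 to 57492350 in the CIA libraries and 29214841 to 49992905 in the naïve libraries. The defining genes of a colon were present in all of them: Car1, an enzyme of surface colonocytes, had 1373, 1055, 1783, 1722 and 1694 CPM in the CIA libraries, against 6433, 1965, 3224, 2777 and 2635 CPM in the naïve libraries. CIA replicate 2 stood apart over the skeletal muscle list and naïve replicate 3 over the interferon-stimulated list. Over the skeletal muscle list, the mean log2 CPM (CPM, counts scaled to a common library total) was 4.77 in CIA replicate 2, against 1.22 to 1.74 in the other CIA libraries and 0.74 to 1.33 in naïve libraries. Over the interferon-stimulated list it was 6.07 in naïve replicate 3, against 3.80 to 4.12 in the other naïve libraries and 3.46 to 4.00 in CIA libraries. Several results that rest on either library are given with and without it. Naïve replicate 1 was far below the rest of its group for 5 genes, Ryr2, Kcnq5, Chrm2, Fn1 and Aqp8.

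At ZT12, 318 genes were higher and 450 genes were lower in CIA than in naïve colon (edgeR quasi-likelihood test, Benjamini-Hochberg adjusted p under 0.05). These are 1.89% and 2.68% of the genes tested, and the count of each gene list is read against those shares. Differences were modest. The median log2 fold change was 0.57 over the genes that were higher and -0.52 over those that were lower. Of the genes that were higher, 32 differed by more than 2-fold, as did 54 of those that were lower. Over all genes tested, 3.41% had 5 CIA values all above the 5 naïve values and 4.28% had them all below. Among the called genes these numbers were 267 of 318 and 379 of 450. The smallest adjusted p was 0.0152, so the calls sat close to the threshold, and 4286 genes had an unadjusted p under 0.05, 2001 of them higher (11.9%) and 2285 lower (13.6%).

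**Figure D1:**
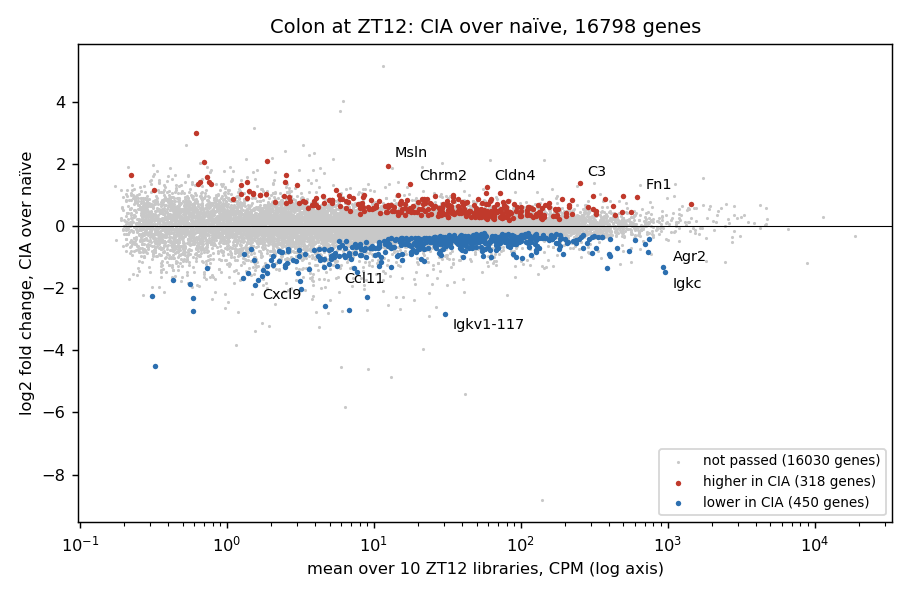
Log2 fold change of CIA over naïve colon at ZT12 (y axis) against the mean CPM over the 10 libraries (x axis, log scale), 1 point a gene. The 318 genes higher in CIA (red) and the 450 lower (blue) lie mostly within 2-fold, while many genes with larger differences (grey) varied too much between libraries to pass.

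The number of calls depended on single libraries. Without CIA replicate 4, or without CIA replicate 5, no gene passed in either direction, although 3411 and 3525 genes had an unadjusted p under 0.05 and the smallest adjusted p-values were 0.0577 and 0.0550. Without CIA replicate 3, 12 genes were higher and 21 lower. Without CIA replicate 1 or naïve replicates 1, 2, 4 or 5, the calls numbered 263, 308, 371, 148 and 135 in all. Leaving out CIA replicate 2 raised the calls to 565 higher and 883 lower, and leaving out it and naïve replicate 3 gave 571 higher and 723 lower. All 768 called genes had a value in each of these fits and none had the opposite sign. In the other fits that were run 676 to 768 of them had a value, and none of those had the opposite sign. These signs are no independent check, since the genes were picked in the same libraries and most had groups without overlap. The level of smooth muscle genes moved with the groups as well. The smooth muscle score, the mean log2 CPM over 26 genes, was 8.72 to 9.55 in CIA and 8.18 to 9.01 in naïve libraries. In a fit adjusted for it 22 genes passed as higher and 25 as lower, 32 of them among the 768. Since the score moved with treatment and holds genes called in this contrast, the fit cannot separate muscle content from treatment.

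**Figure D2:**
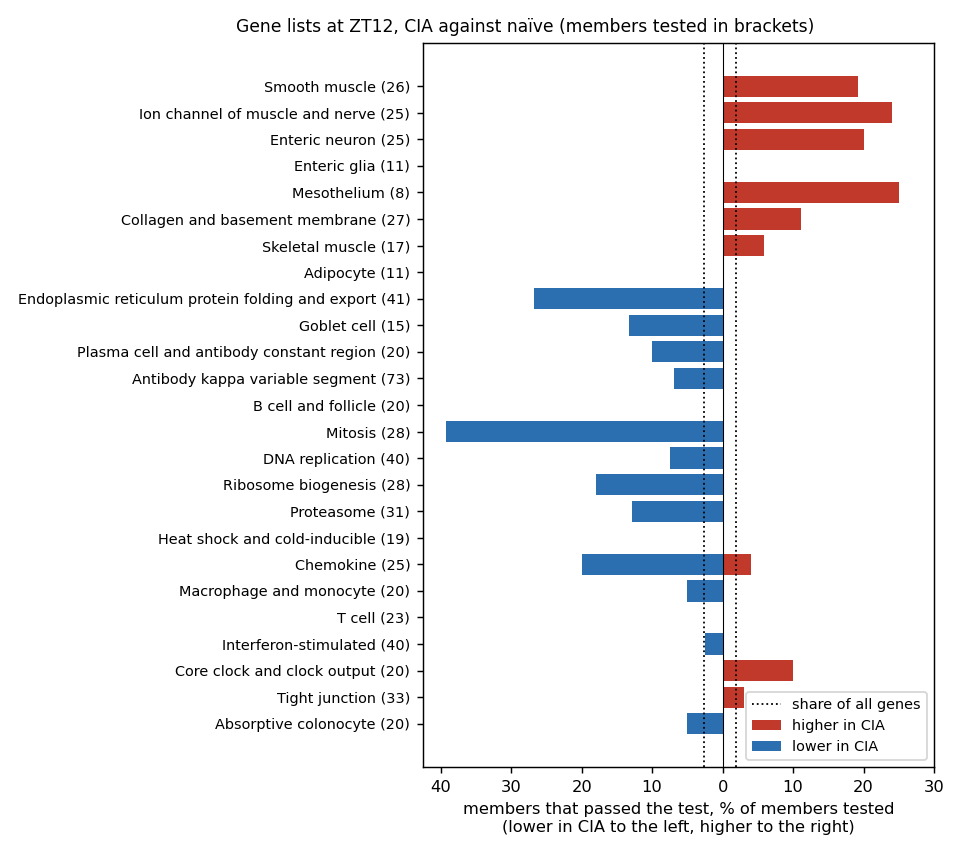
Share of the tested members of 25 gene lists (number in brackets) that passed the test at ZT12, higher in CIA to the right and lower to the left. Dotted lines mark the shares over all genes, 1.89% higher and 2.68% lower. Muscle, nerve and mesothelium lists extend to the right, and mitosis, endoplasmic reticulum, chemokine and ribosome biogenesis lists to the left.

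Genes of the muscle layers were among those higher in CIA colon. Of 26 smooth muscle genes tested, 5 passed, all higher, and all 26 had a positive log2 fold change (median 0.59). Pgm5, a phosphoglucomutase-like protein of muscle attachment sites (chr19:24678261-24861842, GRCm38), had 367, 509.5, 490.1, 589 and 457 CPM in the CIA libraries, against 177, 291, 324, 252 and 263 CPM in the naïve libraries. The groups did not overlap, and naïve replicate 1 was the lowest library (log2 fold change 0.89 ± 0.17 SE, adjusted p = 0.0271). Kcnmb1, the beta subunit of the calcium-activated potassium channel of smooth muscle, differed by 0.87, and Synm, an intermediate filament protein, by 0.98 on the log2 scale (adjusted p = 0.0333 and 0.0467). Lmod1, which nucleates actin filaments in smooth muscle, passed narrowly at 0.61 (adjusted p = 0.0486). With single libraries left out, 10 of the 26 passed without naïve replicate 3, 2 to 4 without CIA replicates 1 or 2 or naïve replicates 1 or 2, and 0 without CIA replicates 3, 4 or 5 or naïve replicates 4 or 5, and 12 passed without both CIA replicate 2 and naïve replicate 3. DESeq2 called 15 and voom 8.

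Channels and receptors that set the excitability of muscle and nerve were also among them. Of 25 such genes 6 passed, all higher (median 0.42), and with single libraries left out the count was 0 without CIA replicates 3, 4 or 5 and 2 to 7 without each of the others. Ryr2, a calcium release channel of the sarcoplasmic reticulum (chr13:11553099-12106945), had 25.5, 31.98, 33.96, 31.9 and 25.3 CPM in the CIA libraries, against 12.3, 17.6, 17.5, 16.4 and 17.5 CPM in the naïve libraries. The lowest CIA library lay well above the highest naïve library, and naïve replicate 1 was low within its group (log2 fold change 0.87 ± 0.13 SE, adjusted p = 0.019). Abcc9, the sulfonylurea receptor subunit of ATP-sensitive potassium channels, differed by 0.78, Cacna1c, the pore of the L-type calcium channel, by 0.70, its beta subunit Cacnb2 by 0.73 and the potassium channel Kcnq5 by 0.85 (adjusted p = 0.0219, 0.0427, 0.0394 and 0.0434). Chrm2, the M2 muscarinic receptor through which acetylcholine acts on gut muscle, was among the 12 passing genes of at least 10 CPM with the largest increase. It had 18.6, 25.1, 29.2, 32.9 and 21.2 CPM in the CIA libraries, against 4.7, 9.95, 12.3, 11.3 and 11.4 CPM in the naïve libraries (log2 fold change 1.36 ± 0.25 SE, adjusted p = 0.0256). All CIA values exceeded all naïve values, and naïve replicate 1, at 4.70 CPM, was again the lowest. Rgs7bp, which anchors regulators of G protein signalling at the membrane, averaged 34.6 ± 3.48 CPM in CIA and 17.8 ± 2.71 CPM in naïve colon (SD, n = 5 each) and had the smallest adjusted p of any gene that was higher (0.0152).

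Some enteric neuron genes were higher too. Of 25 tested 5 passed, all higher, and 24 had a positive difference (median 0.39). None passed in the fit to all 60 libraries, or without CIA replicates 3, 4 or 5 or naïve replicates 1, 4 or 5, 1 passed without CIA replicate 1, and 4 to 7 without each of the other 3 libraries, while DESeq2 called 12 and voom 10. Hand2, a transcription factor of enteric neuron differentiation (chr8:57320983-57324517), had 40.5, 63.4, 49.2, 50.01 and 46.4 CPM in the CIA libraries, against 28.8, 36.3, 33.5, 24.1 and 32.4 CPM in the naïve libraries. The groups did not overlap (log2 fold change 0.69 ± 0.13 SE, adjusted p = 0.0287). Calb2 (calretinin, a calcium-binding protein of enteric neurons) differed by 0.45, Prph (peripherin, a neuronal intermediate filament) by 0.46, Gap43 (a growth cone protein) by 0.47 and Syt1 (the calcium sensor of vesicle release) by 0.50 on the log2 scale. The 11 enteric glia genes tested gave no call by edgeR, DESeq2 or voom, 4 of them had an unadjusted p under 0.05 and were higher, and their median was 0.19. Cdh19, a cadherin of glia, had 12.6, 28.5, 19.8, 19.8 and 23.9 CPM in the CIA libraries, against 11.95, 14.9, 18.3, 12.6 and 15.97 CPM in the naïve libraries, and the groups overlapped (log2 fold change 0.50 ± 0.20 SE, adjusted p = 0.144). In the fit adjusted for the smooth muscle score, which holds the smooth muscle genes themselves, no member of the smooth muscle, ion channel or enteric neuron lists passed.

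At the outer surface, 2 of 8 mesothelium genes passed, both higher, while 2 of the 8 had a negative difference and the CPM summed over the list, mostly Krt19, a keratin that epithelium also makes, ranged from 2338 to 3126 in CIA and from 2037 to 3957 in naïve libraries. Msln, mesothelin, a surface protein of mesothelial cells (chr17:25748613-25754378), had the largest increase of the genes of at least 10 CPM that passed. It had 15.8, 9.88, 27.4, 27.4 and 18.04 CPM in the CIA libraries, against 4.33, 5.66, 8.36, 2.11 and 5.33 CPM in the naïve libraries (log2 fold change 1.93 ± 0.36 SE, adjusted p = 0.0271). CIA replicate 2 was the lowest CIA library and still exceeded all naïve libraries. Gpm6a, a membrane glycoprotein of mesothelium and neurons, differed by 1.18 (adjusted p = 0.0422), while Lrrn4, at 1.88, did not pass (adjusted p = 0.079). With single libraries left out, 0 of the 8 passed without CIA replicates 3, 4 or 5 or naïve replicate 5, and 1 to 3 without each of the others. The fit to all 60 libraries called 1, and the fit without CIA replicate 2 and naïve replicate 3 called 5. C3, the central complement component, followed the same 2 CIA libraries: it had 208, 205, 653, 425 and 331 CPM in the CIA libraries, against 92.6, 172, 157, 112 and 163 CPM in the naïve libraries, with replicates 3 and 4 highest, as for Msln (log2 fold change 1.39 ± 0.32 SE, adjusted p = 0.0382).

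Among 27 collagen and basement membrane genes, 3 passed, all higher, with a list median of 0.14. The list was mixed, with 15 positive and 12 negative differences. None passed without CIA replicates 3, 4 or 5 or naïve replicate 5, and 1 to 3 were higher without each of the others. Fn1, the matrix glycoprotein fibronectin (chr1:71585473-71653280), had 701, 731, 773, 1055 and 784 CPM in the CIA libraries, against 272, 445, 496, 451 and 432 CPM in the naïve libraries. Every CIA library was above every naïve library, with CIA replicate 4 highest and naïve replicate 1 lowest (log2 fold change 0.95 ± 0.17 SE, adjusted p = 0.0249). Lama5, a laminin chain of epithelial basement membrane, differed by 0.60, and the type IV collagen chain Col4a5 by 0.74 (adjusted p = 0.0289 and 0.0362). Frem2, an extracellular matrix protein that joins epithelium to its underlying tissue, averaged 19.6 ± 4.49 CPM in CIA and 9.78 ± 2.495 CPM in naïve colon (SD, n = 5 each; adjusted p = 0.0274). The fibroblast list of 15 genes gave no call by edgeR or DESeq2 and 1 lower by voom, with 1 gene higher at an unadjusted p under 0.05 and a median of -0.08.

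Skeletal muscle transcripts were most abundant in 1 library. All 17 genes of the list that were tested had a positive difference, and 10 were higher at an unadjusted p under 0.05. Atp2a1, the calcium pump of fast skeletal muscle, had 0.351, 110.0, 0.873, 0.583 and 0.526 CPM in the CIA libraries, against 0.461, 0.985, 0.171, 0.564 and 0.829 CPM in the naïve libraries. CIA replicate 2 alone was high. The log2 fold change of 5.17 did not pass (adjusted p = 0.0994) and was -0.06 without that library. Myh2, a skeletal myosin heavy chain, was the only one of 17 genes in that list to pass. Its values were low but did not overlap, at 1.45, 5.102, 2.58, 4.25 and 1.91 CPM in the CIA libraries, against 0.307, 0.481, 1.16, 0.564 and 1.07 CPM in the naïve libraries (log2 fold change 2.09 ± 0.45 SE, adjusted p = 0.034). Myl1, another member, had 2.01, 21.5, 2.48, 1.68 and 2.59 CPM in the CIA libraries, against 1.01, 1.44, 1.37, 1.43 and 0.889 CPM in the naïve libraries. Its groups did not overlap either, but it did not pass (adjusted p = 0.0842). Ckm, the muscle creatine kinase, was present in every library at 19.1, 69.1, 23.02, 27.7 and 23.6 CPM in the CIA libraries, against 23.6, 15.2, 40.3, 15.1 and 26.3 CPM in the naïve libraries, and neither it (adjusted p = 0.507), Eno3 (adjusted p = 0.488) nor Pygm (adjusted p = 0.195) passed. The level of adipocyte genes varied as well, with a score of 0.35 to 4.26 in CIA and 2.24 to 5.02 in naïve libraries. The 11 adipocyte genes gave no call by edgeR, DESeq2 or voom, and 1 had an unadjusted p under 0.05.

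**Figure D3:**
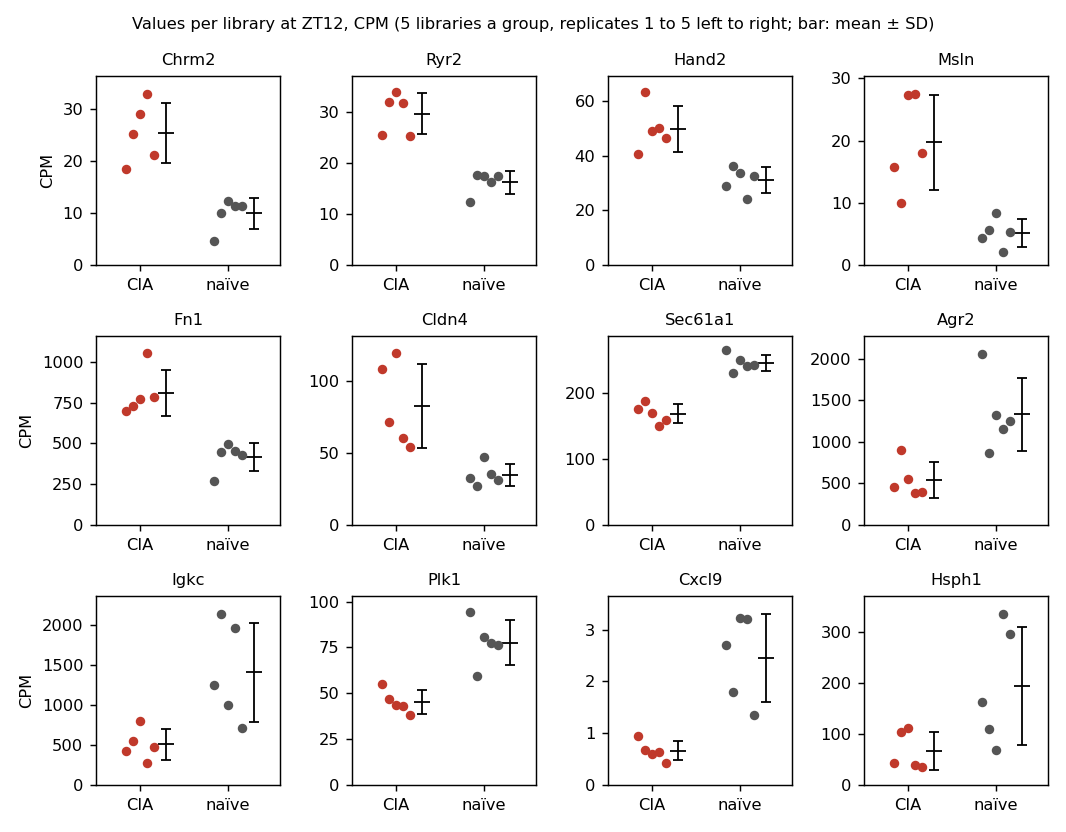
CPM per library of 12 genes at ZT12, CIA (red) left of naïve (grey), 5 libraries a group in order of replicate number, with the mean and SD beside each group. Chrm2, Ryr2, Hand2, Msln, Fn1 and Cldn4 are higher in CIA without overlap. Sec61a1, Plk1 and Cxcl9 are lower without overlap, Agr2 and Igkc are lower with overlap, and Hsph1 overlaps and did not pass.

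Genes that fold, modify and export proteins in the endoplasmic reticulum were among those lower in CIA colon. Of 41 tested 11 passed, all lower, 34 had a negative difference, and the median was -0.37. That is 26.8% of the list, against 2.68% of all genes. The 4 with the smallest p were Sec61a1, the channel through which new proteins enter the reticulum, Rpn2, a subunit of the complex that attaches sugars to them, Ssr2, a protein next to the channel, and Xbp1, the transcription factor that raises the folding capacity of secretory cells. Sec61a1 (chr6:88503607-88518800) had 176, 189, 169.8, 151 and 159.6 CPM in the CIA libraries, against 265, 231, 251, 242 and 243 CPM in the naïve libraries (log2 fold change -0.54 ± 0.08 SE, adjusted p = 0.019). The highest CIA library, at 189 CPM, lay below the lowest naïve library, at 231 CPM. Xbp1 (chr11:5520641-5525993) had 238, 262, 233, 196 and 213 CPM in the CIA libraries, against 359, 317, 293, 359 and 348 CPM in the naïve libraries, again without overlap (log2 fold change -0.55 ± 0.10 SE, adjusted p = 0.0238). Rpn2 differed by -0.72 and Ssr2 by -0.47 on the log2 scale (adjusted p = 0.019 and 0.0195).

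The other members that passed were chaperones, disulfide isomerases and Ostc, another subunit of the sugar-attaching complex. Calr, calreticulin, which holds newly glycosylated proteins until they fold, averaged 245 ± 55.98 CPM in CIA and 402 ± 44.01 CPM in naïve colon (SD, n = 5 each), a log2 fold change of -0.71. Sdf2l1 differed by -0.93, P4hb by -0.72, Pdia4 by -0.55, Pdia6 by -0.64, Dnajc3 by -0.44 and Ostc by -0.54. Hspa5, the main chaperone of the compartment, also known as BiP, had 378, 567, 533, 337 and 323 CPM in the CIA libraries, against 638, 668, 502, 849.9 and 794 CPM in the naïve libraries. CIA replicates 2 and 3 lay within the naïve range and the gene did not pass (log2 fold change -0.69 ± 0.19 SE, adjusted p = 0.0635). Without CIA replicate 2, 21 of the 41 passed, without naïve replicate 3, 15, and without both, 22. Without CIA replicates 4 or 5 none passed, and without each of the other 6 libraries 3 to 7. Adjusted for the smooth muscle score no member passed, although the median hardly moved, at -0.38.

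Many genes of this group carry the endoplasmic reticulum stress element, through which unfolded protein induces them, close to their start. Its letters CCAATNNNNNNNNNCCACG were sought on both strands in the 250 bases before each RefSeq start (GRCm38.p6). They were found for 18 of the 12657 tested genes that had such a sequence (0.142%) and for 9 of 35 members of this list (25.7%). Of the 8 called members with a sequence, 3 held it: Calr, Dnajc3 and Pdia6. Hspa5 also held it. The 4 stretches are shown 5′ to 3′ on the strand of the gene with the element in capitals, and Calr carries it on the opposite strand, so that the letters read in reverse complement.
Calr: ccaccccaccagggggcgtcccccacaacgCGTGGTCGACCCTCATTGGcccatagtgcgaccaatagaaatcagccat
Dnajc3: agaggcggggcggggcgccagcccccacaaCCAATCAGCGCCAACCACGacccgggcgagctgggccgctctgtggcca
Pdia6: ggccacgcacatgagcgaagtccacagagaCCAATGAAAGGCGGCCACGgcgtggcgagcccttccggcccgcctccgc
Hspa5: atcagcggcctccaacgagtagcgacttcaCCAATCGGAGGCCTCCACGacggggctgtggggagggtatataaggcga
They lie at chr8:84847045-84847123, minus strand (Calr), chr14:118937797-118937875, plus strand (Dnajc3), chr12:17266461-17266539, plus strand (Pdia6) and chr2:34771995-34772073, plus strand (Hspa5). The first 3 genes passed the test and Hspa5 did not, and a match in these windows is a description of the letters only.

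Secretory cell types that depend on this machinery differed in part. Of 15 goblet cell genes 2 passed, both lower (median -0.65), but none without CIA replicates 3, 4 or 5 or naïve replicates 1, 4 or 5. In that list 11 differences were negative and 4 positive. Agr2, a disulfide isomerase needed for mucin folding (chr12:35992925-36004081), had 456, 906, 559, 379 and 399 CPM in the CIA libraries, against 2063, 867, 1320, 1157 and 1249 CPM in the naïve libraries. CIA replicate 2, at 906 CPM, was above naïve replicate 2, at 867 CPM, and the other libraries separated (log2 fold change -1.30 ± 0.28 SE, adjusted p = 0.0346). Creb3l1, a membrane-bound transcription factor of secretory cells, differed by -0.75 (adjusted p = 0.0319). Atoh1, which commits crypt cells to the secretory lineage, differed by -0.69 and did not pass (adjusted p = 0.066), and neither did the mucin Muc2, at -1.19 ± 0.58 (SE; adjusted p = 0.222).

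Several antibody transcripts were lower, with wide spread in the naïve group. Igkc, the constant region of the kappa light chain (chr6:70726435-70726754), had 426, 553, 803, 275 and 476 CPM in the CIA libraries, against 1244, 2138, 993, 1959 and 709 CPM in the naïve libraries. The ranges overlapped, since CIA replicate 3 exceeded naïve replicate 5 (log2 fold change -1.48 ± 0.34 SE, adjusted p = 0.039). Of 20 plasma cell genes, Igkc and Xbp1 passed, and none did without CIA replicates 3, 4 or 5 or naïve replicate 4. Jchain, the chain that joins IgA and IgM units, and Igha, the IgA heavy chain, had log2 fold changes of -1.20 and -1.12 and did not pass (adjusted p = 0.0648 and 0.0814), nor did Derl3, at -1.08 (adjusted p = 0.0505). Among 73 kappa variable segments 5 passed, all lower, 69 had a negative difference and the median was -1.34. Without CIA replicates 4 or 5 none of these segments passed, and without each of the other libraries 2 to 9. Igkv1-117 had 10.4, 5.15, 11.8, 5.83 and 4.35 CPM in the CIA libraries, against 66.2, 28.3, 41.7, 102 and 31.5 CPM in the naïve libraries, the largest decrease of the genes of at least 10 CPM that passed (log2 fold change -2.85 ± 0.42 SE, adjusted p = 0.019). Of 55 heavy variable segments, Ighv1-74 passed (log2 fold change -2.72 ± 0.53 SE, adjusted p = 0.0284), and the median was -1.08. Ighv1-74 rested on few counts, with a mean of 0.151 CPM in CIA and 1.035 CPM in naïve libraries. Near-identical segments share reads, so the value of any single segment is uncertain. The B cell and follicle score was 1.01 to 4.37 in CIA and 1.56 to 3.88 in naïve libraries, and its 20 genes gave no call by edgeR, DESeq2 or voom and none at an unadjusted p under 0.05. Adjusted for that score, 532 genes passed as higher and 761 as lower.

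Genes of cell division were among those lower. Mitosis gave the highest share of calls of the 48 lists, 11 of 28 (39.3%), all lower, and all 28 had a negative difference (median -0.73). Ect2, an exchange factor needed to split the cell at cytokinesis (chr3:27097222-27154253), had 4.03, 5.12, 5.06, 4.44 and 4.91 CPM in the CIA libraries, against 9.95, 7.86, 10.8, 6.86 and 9.22 CPM in the naïve libraries. The groups did not overlap (log2 fold change -0.92 ± 0.15 SE, adjusted p = 0.0191). Plk1, the kinase that drives entry into and passage through mitosis (chr7:122159435-122169884), had 55.2, 46.7, 43.3, 43.1 and 37.9 CPM in the CIA libraries, against 94.5, 59.6, 80.9, 77.3 and 76.2 CPM in the naïve libraries (log2 fold change -0.78 ± 0.13 SE, adjusted p = 0.0195). All CIA libraries were below all naïve libraries, the nearest being CIA replicate 1 and naïve replicate 2. Kif23, a kinesin of the spindle midzone, differed by -0.73, Ttk, a kinase of the spindle checkpoint, by -1.11, its partner Bub1 by -1.04 and Mki67, the proliferation antigen Ki-67, by -0.80 on the log2 scale. Mki67 had 34.5, 37.2, 34.3, 56.5 and 36.1 CPM in the CIA libraries, against 60.1, 68.9, 96.4, 52.7 and 68.6 CPM in the naïve libraries. CIA replicate 4, the CIA library with the highest B cell and follicle score, was high and overlapped naïve replicate 4. In the fit adjusted for that score all 768 called genes passed again in the same direction, Mki67 among them. The part of follicle content in the high value of CIA replicate 4 was not tested. Without CIA replicates 3, 4 or 5 none of the 28 passed, without CIA replicate 2, 11, and without each of the other 6 libraries 2 to 9, and adjusted for the smooth muscle score 2 passed and the median was -1.07.

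Mitotic genes are induced together late in the cell cycle through a short element near their start, the cell cycle homology region. Its core TTTGAA, sought on both strands in the 250 bases before the start, was present for 10 of 24 mitosis genes with a sequence (41.7%) and 5 of the 10 that passed, against 13.2% of all tested genes. Ect2, Prc1, which bundles the midzone microtubules, and Ube2c, which marks mitotic proteins for destruction, are shown 5′ to 3′ with the core in capitals. In Ube2c it lies on the opposite strand.
Ect2: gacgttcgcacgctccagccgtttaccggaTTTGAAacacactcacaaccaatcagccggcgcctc
Prc1: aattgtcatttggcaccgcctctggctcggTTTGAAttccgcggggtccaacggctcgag
Ube2c: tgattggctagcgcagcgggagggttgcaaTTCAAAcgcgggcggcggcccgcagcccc
They lie at chr3:27153957-27154022, minus strand (Ect2), chr7:80294416-80294475, plus strand (Prc1) and chr2:164769870-164769928, plus strand (Ube2c) on GRCm38.p6. Prc1 differed by -0.64 and Ube2c by -0.62 (adjusted p = 0.048 and 0.0359). In the smooth muscle list the CArG box, the element of serum response factor, was present for 3 of 21 genes (14.3%), against 1.41% of all genes, and for none of the 4 called members that had a sequence.

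Genes that copy DNA and build ribosomes and proteasomes gave fewer calls, nearly all in the same direction. Of 40 DNA replication genes 3 passed, all lower, and 39 had a negative difference (median -0.47). They were Pold2, a subunit of DNA polymerase delta (-0.74), Tk1, thymidine kinase (-0.82), and Mcm7, part of the replicative helicase (-0.51). Of 28 ribosome biogenesis genes 5 passed, all lower (median -0.32), led by Noc2l, which had 41.6, 46.8, 39.95, 36.3 and 35.4 CPM in the CIA libraries, against 56.7, 55.9, 53.5, 67.2 and 54.4 CPM in the naïve libraries (log2 fold change -0.52 ± 0.09 SE, adjusted p = 0.0253). The groups did not overlap. Nop56, Nolc1 and Nop2, proteins of the nucleolus, differed by -0.65, -0.48 and -0.35. In the proteasome list, 4 of 31 genes passed, all lower, and 30 had a negative difference, although the median was only -0.21. In these 3 lists none passed without CIA replicates 4 or 5, and without CIA replicate 3 only 1 proteasome gene did, while the counts without CIA replicate 2 were 12, 13 and 10. The replication genes also gave no call without CIA replicate 1 or naïve replicates 1, 2, 4 or 5. Psmd14, the enzyme that strips ubiquitin from proteins entering the proteasome (chr2:61711694-61800376), had 37.7, 43.2, 39.8, 36.9 and 36.2 CPM in the CIA libraries, against 56.2, 55.8, 54.6, 59.3 and 52.4 CPM in the naïve libraries. It varied little within either group, its groups did not overlap, and it had one of the smallest p-values of the comparison (log2 fold change -0.52 ± 0.07 SE, adjusted p = 0.0152). Psmb2, a subunit of the catalytic core, differed by -0.43 (adjusted p = 0.0246). Of 45 nuclear-encoded respiratory chain genes 5 were lower, 11.1% against 2.68% of all genes, and 1 was higher, 2.22% against 1.89%. Their median was -0.06, with 29 negative and 16 positive differences, and 13 were lower and 4 higher at an unadjusted p under 0.05. Of 57 cytosolic ribosomal protein genes 2 were lower, 3.51% against 2.68% of all genes.

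Heat shock genes differed widely but varied between naïve mice. Of 19 heat shock and cold-inducible genes none passed by edgeR, although 12 were lower and 1 higher at an unadjusted p under 0.05, and DESeq2 and voom each called 8 lower and 1 higher. The list median was -0.63. Hsph1, a co-chaperone of HSP70 (chr5:149616843-149636498), had 43.6, 104, 112, 39.2 and 35.3 CPM in the CIA libraries, against 164, 111, 69.6, 336 and 296 CPM in the naïve libraries. Naïve replicates 4 and 5 were highest, CIA replicates 2 and 3 lay within the naïve range, and the gene did not pass (log2 fold change -1.55 ± 0.48 SE, adjusted p = 0.0825). Hspa1a, the inducible HSP70, had 12.1, 17.2, 28.7, 10.1 and 10.1 CPM in the CIA libraries, against 58.4, 22.1, 10.2, 147 and 34.95 CPM in the naïve libraries, with naïve replicate 3 as low as the CIA libraries (log2 fold change -1.80 ± 0.62 SE, adjusted p = 0.105). Ahsa1, an activator of HSP90, Hspd1, the mitochondrial chaperonin, and Hspa8, the constitutive HSC70, differed by -0.63, -0.64 and -0.89 and missed the threshold narrowly (adjusted p = 0.0508, 0.0512 and 0.0583). Cirbp, an RNA-binding protein that rises in the cold, had the opposite sign, at 0.53 (adjusted p = 0.0804). With single libraries left out, 4 of the 19 were lower without CIA replicate 2, 6 were lower and 1 higher without naïve replicate 3, and none passed without any of the other 8 libraries. Without both, 10 were lower and 1 higher, and in the fit to all 60 libraries 13 were lower and 1 higher. Cct3, a subunit of the chaperonin that folds actin and tubulin and no member of the list, did pass: it had 94.9, 125, 108, 85.04 and 89.1 CPM in the CIA libraries, against 156, 149, 137, 157 and 155 CPM in the naïve libraries (log2 fold change -0.59 ± 0.10 SE, adjusted p = 0.0253).

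Several chemokines, the signals that recruit immune cells, were lower. Of 25 chemokines 5 passed as lower and 1 as higher (median -0.72), none without CIA replicates 3, 4 or 5, and 2 to 6 as lower without each of the others. Cxcl9, an interferon-gamma-induced attractant of T cells, had 0.936, 0.683, 0.606, 0.631 and 0.429 CPM in the CIA libraries, against 2.703, 1.79, 3.22, 3.21 and 1.34 CPM in the naïve libraries. Levels were low but the groups did not overlap (log2 fold change -1.89 ± 0.30 SE, adjusted p = 0.0195). Ccl11, eotaxin, the attractant of eosinophils, had 6.601, 11.1, 7.25, 6.65 and 6.16 CPM in the CIA libraries, against 21.8, 10.9, 22.1, 19.9 and 18.8 CPM in the naïve libraries. CIA replicate 2 and naïve replicate 2 met at about the same value, and the other libraries separated (log2 fold change -1.31 ± 0.22 SE, adjusted p = 0.0195). Ccl6 differed by -0.87, Cxcl12, which holds plasma cells and lymphocytes in their niche, by -0.72 and Ccl5, an attractant made by T and NK cells, by -1.65 (adjusted p = 0.0347, 0.0379 and 0.0359). Ccl5 was low, with a mean of 0.619 CPM in CIA and 1.95 CPM in naïve libraries. Cxcl16, a membrane-bound chemokine, was the exception, with 39.9, 47.2, 53.7, 44.8 and 39.2 CPM in the CIA libraries, against 28.6, 35.9, 30.9, 32.97 and 30.8 CPM in the naïve libraries (log2 fold change 0.50 ± 0.10 SE, adjusted p = 0.0289).

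Immune cell lists gave few calls. Of 20 macrophage and monocyte genes C1qb, a chain of complement C1q, passed as lower (log2 fold change -0.70, adjusted p = 0.0307), 5% against 2.68% of all genes. The monocyte gene Ly6c2, at -1.46, did not pass (adjusted p = 0.0612). In that list 16 differences were negative and 4 positive (median -0.28), with 8 lower and 0 higher at an unadjusted p under 0.05. Its score was 3.23 to 3.65 in CIA and 3.72 to 4.00 in naïve libraries, without overlap. The 23 T cell genes gave no call by edgeR, 1 lower by DESeq2 and 1 in each direction by voom, with 4 lower and 1 higher at an unadjusted p under 0.05. Cd28, the costimulatory receptor, had the smallest p of them (log2 fold change -1.22 ± 0.32 SE, adjusted p = 0.0545). Of 40 interferon-stimulated genes only Cxcl9 passed, 1 of 40 against 2.68% of all genes. Their median of -0.95 rested on naïve replicate 3 and was -0.12 without it. Ifit1, an antiviral RNA-binding protein and one of the 3 most abundant members, had 62.2, 53.4, 33.6, 47.4 and 24.4 CPM in the CIA libraries, against 50.2, 50.5, 508, 39.8 and 41.2 CPM in the naïve libraries, where naïve replicate 3 stood far above every other library. Oasl2 and Irf7, the other 2, had 633 CPM and 597 CPM in that library, against 103 to 184 CPM and 138 to 264 CPM in the other naïve libraries.

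In the epithelium, Cldn4 was the clearest barrier gene. Cldn4, a claudin that seals tight junctions (chr5:134945123-134946934), had 108, 71.6, 119.7, 60.8 and 54.6 CPM in the CIA libraries, against 32.9, 27.3, 47.2, 35.2 and 31.2 CPM in the naïve libraries. All CIA libraries exceeded all naïve libraries, with replicates 1 and 3 highest (log2 fold change 1.26 ± 0.23 SE, adjusted p = 0.0271). It was the only one of 33 tight junction genes to pass, 3.03% against 1.89% of all genes, and the list median was 0.11. Cldn2 (log2 fold change -1.13 ± 0.36 SE, adjusted p = 0.0898) and Cldn15 (log2 fold change -1.10 ± 0.36 SE, adjusted p = 0.092), claudins that form pores, did not pass, and both were highest in naïve replicate 1. Jam3, a junctional adhesion molecule, had 23.1, 34.3, 24.7, 27.8 and 21.9 CPM in the CIA libraries, against 18.3, 20.9, 26.03, 19.2 and 23.8 CPM in the naïve libraries, with overlapping groups (log2 fold change 0.28 ± 0.14 SE, adjusted p = 0.235). Of 20 absorptive colonocyte genes Sult1a1, a sulfotransferase, passed as lower (-0.89), while Car1, at -1.16, and the water channel Aqp8, at 1.37, did not (adjusted p = 0.0506 and 0.0837). The Car1 groups, given above, did not overlap. Ephb2, a receptor that positions cells in the crypt, was lower at -0.69 (adjusted p = 0.0408). No other member of the 16 crypt stem and Wnt genes passed, and 1 call is 6.25% of that list, against 2.68% of all genes. In it 12 differences were negative and 4 positive (median -0.15), with 4 lower and 2 higher at an unadjusted p under 0.05. Smoc2, a member with the opposite sign, was at 0.44 and did not pass (adjusted p = 0.0547).

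Epithelial defence genes differed widely between libraries and gave no call. Reg3b, an antibacterial lectin, had 0.468, 1.49, 0.855, 0 and 0.156 CPM in the CIA libraries, against 546, 0.229, 834, 0 and 4.17 CPM in the naïve libraries. Naïve replicates 1 and 3 were high and the other 3 naïve libraries lay at or near the CIA level, so the log2 fold change of -8.83 did not pass (adjusted p = 0.0541). Reg3g, its close relative, was high in the same 2 libraries (log2 fold change -5.41 ± 1.55 SE, adjusted p = 0.0667), and the 2 genes are similar in sequence, so reads may be shared. Nos2, the inducible nitric oxide synthase, had 28.9, 16.4, 21.4, 22.6 and 29.8 CPM in the CIA libraries, against 2.795, 13.02, 13.4, 14.2 and 5.81 CPM in the naïve libraries, higher without overlap and short of the threshold (log2 fold change 1.275 ± 0.38 SE, adjusted p = 0.0759). Of the 19 genes in this list none passed by edgeR, with 3 higher and 6 lower at an unadjusted p under 0.05. DESeq2 called 1 higher and 5 lower, and voom 2 higher and 1 lower. In the hypoxia list 2 of 20 passed, both higher, none without CIA replicates 3, 4 or 5, and 1 to 3 without each of the others. Bnip3, a mitophagy receptor induced by low oxygen (chr7:138890836-138909506), had 84.6, 55.9, 82.4, 82.7 and 88.8 CPM in the CIA libraries, against 30.7, 51.4, 28.9, 40.1 and 34.9 CPM in the naïve libraries (log2 fold change 1.08 ± 0.17 SE, adjusted p = 0.019), and its groups did not overlap although CIA replicate 2 and naïve replicate 2 came close. Egln1, an oxygen sensor that marks the hypoxia factor for destruction, differed by 0.34 (adjusted p = 0.0347).

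Calls among clock genes were few in number, but they made up 10% of the list, against 1.89% of all genes. In that list 18 differences were positive and 2 negative (median 0.24). At an unadjusted p under 0.05, 5 were higher and 0 lower. The list score was 5.021 to 5.179 in CIA and 4.61 to 5.017 in naïve libraries, and the list median at the other 5 times was 0.02. Of 20 clock and clock output genes 2 passed, both higher: the repressor Cry2, with 138, 90.02, 103, 97.2 and 109.6 CPM in the CIA libraries, against 82.2, 77.99, 71.2, 86.7 and 67.2 CPM in the naïve libraries (log2 fold change 0.48 ± 0.12 SE, adjusted p = 0.0451), and Per3, with 122, 90.8, 94.7, 134 and 132 CPM in the CIA libraries, against 66.7, 83.95, 58.3, 94.7 and 73.3 CPM in the naïve libraries (log2 fold change 0.60 ± 0.15 SE, adjusted p = 0.0493). The Cry2 groups did not overlap, and for Per3 naïve replicate 4 reached the level of CIA replicates 2 and 3. Both passed without CIA replicate 2, and neither without any other single library or with no filter on low counts. Per2, another repressor, had 182, 179, 171, 159 and 157 CPM in the CIA libraries, against 147, 167, 94.4, 219 and 147 CPM in the naïve libraries, with the naïve values on both sides of the CIA values (log2 fold change 0.13 ± 0.17 SE, adjusted p = 0.675), and its sign turned without naïve replicate 3. The activator Arntl, the repressor Nr1d1 and the output factor Dbp had log2 fold changes of 0.26 ± 0.23, -0.31 ± 0.23 and 0.11 ± 0.23 (SE), and Nr1d2 one of 0.23 ± 0.08. A further 12 members lay between -0.35 and 0.58 and did not pass.

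Several genes with large differences belong to no list. Among those higher, Igfbp2, which binds insulin-like growth factors, averaged 46.2 ± 12.4 CPM in CIA and 23.01 ± 6.27 CPM in naïve colon, Tmem37, a calcium channel gamma-like subunit, 97.7 ± 22.1 CPM in CIA and 46.6 ± 7.78 CPM in naïve colon, and H1f2, a linker histone, 408 ± 65.9 CPM in CIA and 210.3 ± 55.3 CPM in naïve colon (SD, n = 5 each). All 3 were without overlap. Jund, a subunit of the AP-1 factor, was the only one of 24 immediate early genes to pass and averaged 523 ± 61.8 CPM in CIA and 332 ± 39.7 CPM in naïve colon. Among those lower, Adamdec1, a metalloprotease of gut macrophages and fibroblasts, had 252, 251, 259, 141 and 183 CPM in the CIA libraries, against 1158, 342, 442, 521 and 329 CPM in the naïve libraries (log2 fold change -1.36 ± 0.34 SE, adjusted p = 0.0487). It did not overlap, and naïve replicate 1 was far the highest. Hhip, an inhibitor of hedgehog signalling made in the gut stroma, differed by -1.15, Col6a5, a type VI collagen chain, by -1.09, Tpsg1, a tryptase, by -1.06, Fxyd3, a regulator of the sodium pump, by -1.28, Rap1gap, which switches off Rap1, by -1.02, Ugt1a7c, a glucuronosyltransferase, by -1.001 and 1700066B19Rik by -1.11 on the log2 scale. Ugt1a7c shares its last exons with the other genes of the Ugt1a cluster, so its reads cannot be assigned with certainty.

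Other lists gave 1 call or none. Cholesterol synthesis and uptake gave 1 of 23, Nsdhl, an enzyme of sterol demethylation (log2 fold change -0.67 ± 0.16 SE, adjusted p = 0.0419), and the PPAR targets of fat oxidation 1 of 24, Slc25a20, the carrier that takes acylcarnitine into mitochondria (log2 fold change 0.74 ± 0.18 SE, adjusted p = 0.0471). The single calls in the cytotoxic and NK (1 of 8), IgA network (1 of 34) and glucocorticoid-induced (1 of 17) lists were Ccl5, Cxcl12 and Sult1a1, each already described. Sult1a1 was lower, while 14 of the 17 glucocorticoid-induced genes had a positive difference (median 0.32). Of these 17 genes, 3 were higher and 1 lower at an unadjusted p under 0.05. Enteroendocrine genes gave no call by edgeR, 2 lower by DESeq2 and 1 lower by voom, with 4 of 14 lower at an unadjusted p under 0.05. Endothelium (15 genes), neutrophils (6 genes), mast cells and eosinophils (6 genes), tuft cells (11 genes), interstitial cells of Cajal (5 genes) and MHC class I with the immunoproteasome (17 genes) gave no call by edgeR, DESeq2 or voom. Of these, endothelium and mast cells had 1 gene each, and MHC class I 2 genes, lower at an unadjusted p under 0.05, and the other 3 had none.

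The same contrast was then fitted to the 50 libraries of the other 5 time points, none of which entered the ZT12 test, with time as a factor. There 18.1% of 17973 genes were higher and 18.0% lower. Of the 318 genes higher at ZT12, 311 had the same sign and 250 passed there as higher, and of the 450 lower genes 449 had the same sign and 415 passed as lower. None of the 768 passed in the opposite direction. Median log2 fold changes of the called genes at the other times were 0.30 and -0.25, against 0.57 and -0.52 at ZT12, where the genes had been picked. Sec61a1 had -0.24 there (adjusted p = 2.46e-04), Plk1 -0.54 (adjusted p = 2.93e-05), Ryr2 0.68 (adjusted p = 3.38e-05) and Cldn4 0.66 (adjusted p = 1.03e-04). Fn1, at 0.27, did not pass (adjusted p = 0.0549), nor did Per3, at -0.11.

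**Figure D4:**
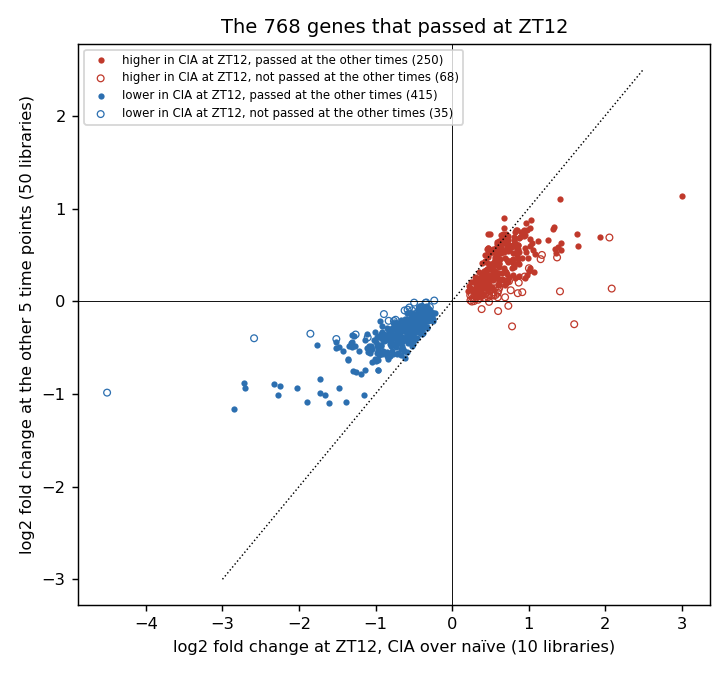
Log2 fold change of CIA over naïve colon at the other 5 time points (y axis, 50 libraries) against that at ZT12 (x axis, 10 libraries) for the 768 genes that passed at ZT12. Filled points passed in both (250 higher, 415 lower), open points at ZT12 only, and the dotted line marks equal values.

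Whether ZT12 differed from the other times was tested gene by gene, as the ZT12 difference minus the mean difference at the other 5 times, over all 60 libraries and 18057 genes. In this test 2 genes were higher (0.0111%) and 0 lower (0.00%), with 776 and 890 at an unadjusted p under 0.05. No second tool was run on it. Both were skeletal muscle genes, Atp2a1 and Myh1, raised in CIA replicate 2 alone, and neither passed without that library. The smallest adjusted p on the lower side was that of Nedd8, a ubiquitin-like modifier, at -0.40 beyond the other times (adjusted p = 0.0623). Genes of protein folding stood close to it. Hsph1 differed by -1.68 beyond the other times (adjusted p = 0.0757), Hspa1a by -1.93, Ahsa1 by -0.52 and Cct3 by -0.46 (adjusted p = 0.0846, 0.0846 and 0.0823). The ribosomal protein gene Rpl29 differed by -0.41 (adjusted p = 0.0846). Without naïve replicate 3, 13 genes were lower, among them Ahsa1, Hspa8, Hsph1, Dnaja1, Hspa1a and Cct3. With naïve replicate 1, 2, 4 or 5 left out instead, no gene passed in either direction. The heat shock list had a median of -0.63 at ZT12, and of -0.17, 0.04, 0.08, -0.03 and -0.02 at ZT0, ZT4, ZT8, ZT16 and ZT20.

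**Figure D5:**
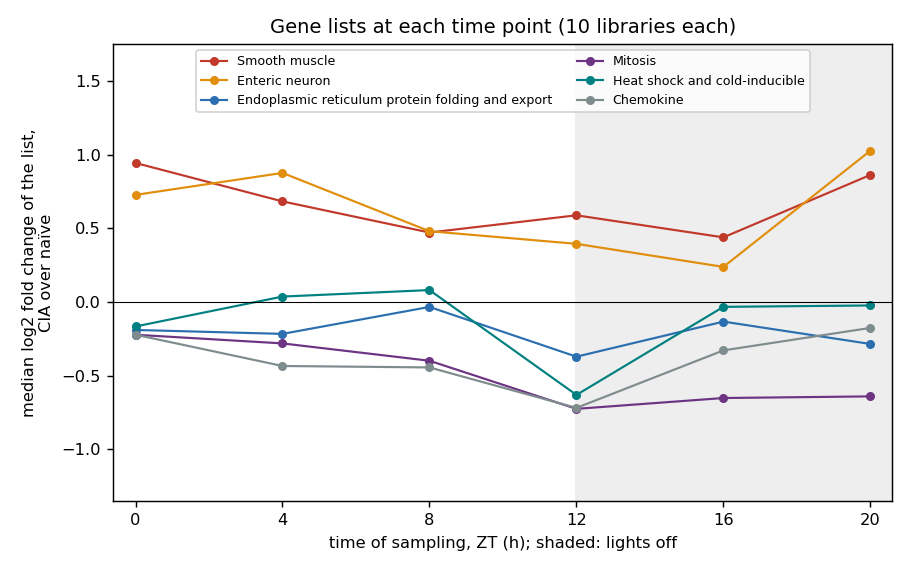
Median log2 fold change of CIA over naïve colon for 6 gene lists (y axis) at each sampling time (x axis, ZT in h, 10 libraries each, lights off shaded). The heat shock list is at -0.63 at ZT12 and lies between -0.17 and 0.08 at the other times, while the smooth muscle and enteric neuron lists are positive and the mitosis list negative at all 6 times.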

How the data were processed

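RNA was sequenced from the colon of CIA and naïve mice (n = 5 mice per group and time point, 6 time points). The deposited values were raw counts per gene, made by the authors from TruSeq stranded mRNA libraries: reads were trimmed with Trimmomatic 0.36, aligned to mm10 (GRCm38) with STAR 2.5.3 after bcl2fastq 2.17.1.14, and counted with Rsubread. Most low counts were even numbers in every library, so the counts were also tested after halving. Gene IDs were named from RefSeq (GRCm38.p6), and 1886 of 27179 had no name.

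At ZT12 the 10 libraries were fitted with edgeR 4.0.16 in R 4.3.3. Genes were kept at a minimum count of 10, scaling was by TMM, and treatment was tested with the quasi-likelihood F test and Benjamini-Hochberg adjustment over all genes tested, at 0.05. The p-values measure the spread between these mice. CPM are counts divided by the TMM-scaled library total and set to a common total, and list scores are means of log2 CPM with a prior count of 2. The other 5 time points were fitted with time as a factor, and the ZT12 difference was tested against their mean over all 60 libraries. The gene lists (48) and the comparison itself were chosen with earlier results of these data known. Named genes were up to 12 in each direction with the largest log2 fold change among genes past the threshold and of at least 10 CPM, up to 4 members of a list with the smallest p, the clock genes (12 of them as a range), Cldn4, Jam3 and Per2, up to 6 genes a direction in the test against the other times, and the 3 most abundant members of a list that set a library apart. Lmod1, Muc2, Car1, Aqp8, Hspa5, Myh2, Bub1, Ube2c, Prc1, Mki67, Cirbp, Dnaja1, Tk1, Mcm7, Jund, Nos2, Cct3, the further members of the endoplasmic reticulum list and any other named gene that these rules do not give were added after their values were seen. Some genes that the rules give are not reported here. Promoter windows were RefSeq sequence of the 250 bases before each gene start. Alternatives were DESeq2 1.42.0, limma 3.58.1 (voom), other scalings and filters, score covariates, the replicate number as a block, all 60 libraries in a single fit, and each library left out in turn. A single deposited table was used.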

Additional observations from a re-analysis of the deposited data

Results flagged for a closer look

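Within each group of 5 libraries, 294 sets of values (log2 CPM of the genes examined and the list scores) were searched for a single library far from the others, and 21 had one, where chance alone gives about 1 in 20. CIA replicate 2 stood out most often. It was high for Atp2a1 (110.0 CPM, next 0.873 CPM), Ckm (69.1 CPM, next 27.7 CPM), the skeletal muscle score (4.77, next 1.74), the ribosome biogenesis score (5.29, next 5.07) and Ccl11 (11.1 CPM, next 7.25 CPM), and low for Bnip3 (55.9 CPM, next 82.4 CPM) and Aqp8 (712 CPM, next 1619 CPM). For Ccl11, Bnip3 and Aqp8 its values lay towards those of naïve colon.

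CIA replicate 4 was high for Fn1 (1055 CPM, next 784 CPM), Mki67 (56.5 CPM, next 37.2 CPM) and the chemokine score (2.32, next 2.03). Among naïve libraries, replicate 1 was low for Aqp8 (135 CPM, next 646 CPM) and for the muscle and matrix genes Ryr2 (12.3 CPM, next 16.4 CPM), Kcnq5 (2.06 CPM, next 3.83 CPM), Chrm2 (4.70 CPM, next 9.95 CPM) and Fn1 (272 CPM, next 432 CPM). Naïve replicate 3 was high for Ifit1 (508 CPM, next 50.5 CPM), the interferon-stimulated score (6.07, next 4.12) and Ttk (5.31 CPM, next 3.72 CPM). Naïve replicate 2 was low for Ccl11 (10.9 CPM, next 18.8 CPM), replicate 4 high for Noc2l (67.2 CPM, next 56.7 CPM) and replicate 5 low for Psmb2 (73.8 CPM, next 82.2 CPM).

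Myh1, a fast skeletal myosin, and Atp2a1 differed more at ZT12 than at the other 5 time points, by 10.41 and 5.75 on the log2 scale (edgeR quasi-likelihood test, adjusted p = 0.018 for each). Myh1 had 65.4 CPM in CIA replicate 2, against at most 0.316 CPM in the other CIA libraries and at most 0.0458 CPM in naïve libraries. Without that library neither gene passed.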

How the results depend on the processing

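The counts of calls moved widely with the method. At ZT12, DESeq2 called 1033 genes higher and 1218 lower, voom 988 and 1253, and the fit to all 60 libraries 516 and 1159. With both libraries that stood apart left out the counts were 571 and 723, adjusted for the B cell score 532 and 761, for the smooth muscle score 22 and 25, and with a log2 fold change beyond 1 required 32 and 54. Leaving out 1 library in turn gave 0 to 565 higher and 0 to 883 lower genes. Other scalings, robust estimation, halved counts and other filters on low counts kept both counts within 1.5 times, although scaling by library totals alone gave 34.9% of calls higher, against 41.4% with TMM. The labels do not say whether shared replicate numbers mark pairs. Among same-numbered libraries 1 of 5 correlations was above 0.1 and none was the best for its number. With 5 libraries a group, such a check cannot decide whether the samples were paired. With the replicate number as a block 0 genes were higher and 0 lower (smallest adjusted p 0.0936, 3361 genes at an unadjusted p under 0.05), and in the test against the other times 0 and 0.

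For ZT12 against the other times, 2 genes were higher and 0 lower. The counts were 0 and 0 among genes of at least 5 CPM, 3 and 1 with library totals alone, 3 and 16 without both libraries that stood apart, and 0 to 11 and 0 to 13 without each library in turn. The counts at the other 5 times stayed within 1.5 times under the block and the stricter filter.

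Signs turned for genes that had not passed. With single libraries left out, Atp2a1 ranged from -0.063 (without CIA replicate 2) to 5.49, Ckm from -0.043 (without CIA replicate 2) to 0.70, Per2 from -0.0025 (without naïve replicate 3) to 0.29 and Dbp from -0.044 (without CIA replicate 4) to 0.23, and Dbp was at -0.0088 without naïve replicate 1. With both libraries out Atp2a1 was at -0.29 and Per2 at -0.023. Adjusted for the smooth muscle score Jam3 was at -0.11, Atp2a1 at -2.71, Ckm at -0.65 and Pygm at -0.15. None of the 768 called genes had the opposite sign in a fit that gave it a value (676 at the stricter filter, 760 to 768 elsewhere). They had been picked in the same libraries, so this is no independent check. The causes of the sign changes given above were not tested. With 5 mice a group, a difference in a single library can decide a call, and genes near the filter rest on few counts.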

Other observations

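Families of the secretory pathway that were grouped after the calls had been seen, and so carry no test of the family as a whole, were also lower in part. Over all genes tested 2.68% were lower, but families picked in this way hold called genes from the start. Without CIA replicate 4, or without CIA replicate 5, no gene passed. Of 12 subunits of the oligosaccharyltransferase, which attaches sugars to new proteins, 7 passed at ZT12, all lower (Rpn2, Tmem258, Ostc, Ost4, Krtcap2, Stt3b and Stt3a), with a median log2 fold change of -0.38 at ZT12 and -0.16 at the other times. Tmem258 varied little among CIA libraries, from 38.02 to 40.48 CPM, against 46.1 to 61.1 CPM in naïve libraries. Of 9 subunits of the COPI coat, which carries proteins back from the Golgi, 4 were lower (median -0.28), and of 10 p24 cargo receptors 3 were (median -0.30), among them Tmed9 at -0.52. Of 10 genes that make or transport GDP-mannose and GDP-fucose, the sugar donors, 7 were lower (median -0.41). Gmds led them, with 133, 176, 149.7, 116 and 112 CPM in the CIA libraries, against 303, 221, 274, 227 and 241 CPM in the naïve libraries (log2 fold change -0.88 ± 0.14, SE).

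Members of 3 further families, also grouped after the calls had been seen, passed, and the same limits hold for them. Of 6 Cd209 lectins, C-type lectins of macrophages and dendritic cells, 4 passed, all lower (Cd209a, Cd209b, Cd209f and Cd209g), with a median of -1.34 at ZT12 and -0.88 at the other times. Their levels were at most 3.16 CPM in CIA and 7.18 CPM in naïve libraries, and the genes are close relatives, so reads may be shared. Of 8 Wnt ligands, Wnt2b and Wnt4 passed, both lower, while 3 had a positive difference (median -0.17). Of 9 BMP ligands, Bmp5 and Bmp7 passed, both lower, and 3 had a positive difference (median -0.32). Wnt2b had 4.10, 5.10, 5.45, 4.59 and 4.85 CPM in the CIA libraries, against 9.06, 9.03, 8.53, 9.91 and 7.11 CPM in the naïve libraries, without overlap (log2 fold change -0.86 ± 0.13, SE).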
